A study of Homo sapiens with 4 samples.

Results

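Epithelial cells are tied to each other and to their support by a small set of structures, and 43 genes that build or specify these structures are described here in AGS, an established line of human gastric adenocarcinoma cells. The 43 genes were listed by name and sorted into keratins, desmosomes, adherens junctions, tight junctions, hemidesmosomes and basement membrane, polarity proteins, and factors of epithelial adhesion and identity. A gene counted as measured where the platform annotation tied a transcript cluster, the array's group of probes for a locus, to its symbol alone, and its brightest such cluster stood for it. By this rule 38 of the 43 genes were measured, out of 18418 genes measured in all. The other 5 genes, CTNND1, OCLN, F11R, LAMA3 and ESRP1, were not analysed here, 2 of them because their cluster carries several symbols.

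The tested cells received 0.01% ornithogalum, a homeopathic formulation, for 36 h, and the control cells received ethanol, its vehicle, for 36 h. Each group had 2 Affymetrix Human Gene 1.0 ST arrays, labelled as biological replicates, and all 4 arrays came from the same line grown to the same confluency in medium with serum. The labels do not say whether replicates came from separate cultures on separate days, so p-values measure only the spread between these samples. Values are the deposited log2 expression values, and a log2 difference is ornithogalum minus vehicle. Genes are said to have risen or fallen where limma's Benjamini-Hochberg adjusted p over 21214 named clusters was under 0.05. Levels of different genes come from different probes and are not compared.

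Keratins of simple epithelia pair a type I with a type II protein into filaments that give the cell mechanical strength. Desmosomes fasten those filaments to neighbouring cells, and hemidesmosomes fasten them to the basement membrane through an integrin that binds laminin. Adherens junctions hold cells together through cadherins and catenins linked to actin, and tight junctions seal the space between cells with claudins and MARVEL-domain proteins held by ZO scaffolds. Polarity complexes of the Par and Crumbs families place these junctions at the border of the apical surface. AGS cells have been described as deficient in E-cadherin protein.

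In ornithogalum-treated cells 11 of the 38 measured genes fell and 4 rose. The 11 were KRT19, the desmosomal genes DSP, DSG2, PKP2 and PPL, the tight junction genes TJP1, TJP3, CLDN1, CLDN7 and MARVELD2, and the hemidesmosomal integrin gene ITGB4. The 4 were the tight junction genes CGN and CXADR, the polarity gene PARD6B and the transcription factor gene GRHL2. Falls lay between 1.54-fold and 2.63-fold and rises between 1.39-fold and 1.55-fold. The 15 genes make up 39.5% of the measured members, where limma called 19.2% of all named clusters, 12.6% lower and 6.57% higher. The members were chosen with earlier results of these data known, so their excess over all clusters is no test of the set. On the wider list described below, 14.2% of 106 measured genes passed. The members are mostly brighter than the array as a whole, and 33 of them had a mean value above the median of tested clusters. Of those 33, 45.5% passed and 33.3% fell, where limma called 31.0% of all brighter clusters and 19.9% of all brighter clusters fell. Both ornithogalum arrays lay above both vehicle arrays in 10 members and below them in 19, where 32.0% and 30.2% of all clusters did so. These shares were not counted among brighter clusters alone. The median log2 difference was -0.13 over the 38 members and 0.035 over all tested clusters, and -0.182 over the 33 brighter members and -0.072 over all brighter clusters. In bulk RNA, fewer cells of a kind and less RNA per cell cannot be told apart.

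**Figure D1:**
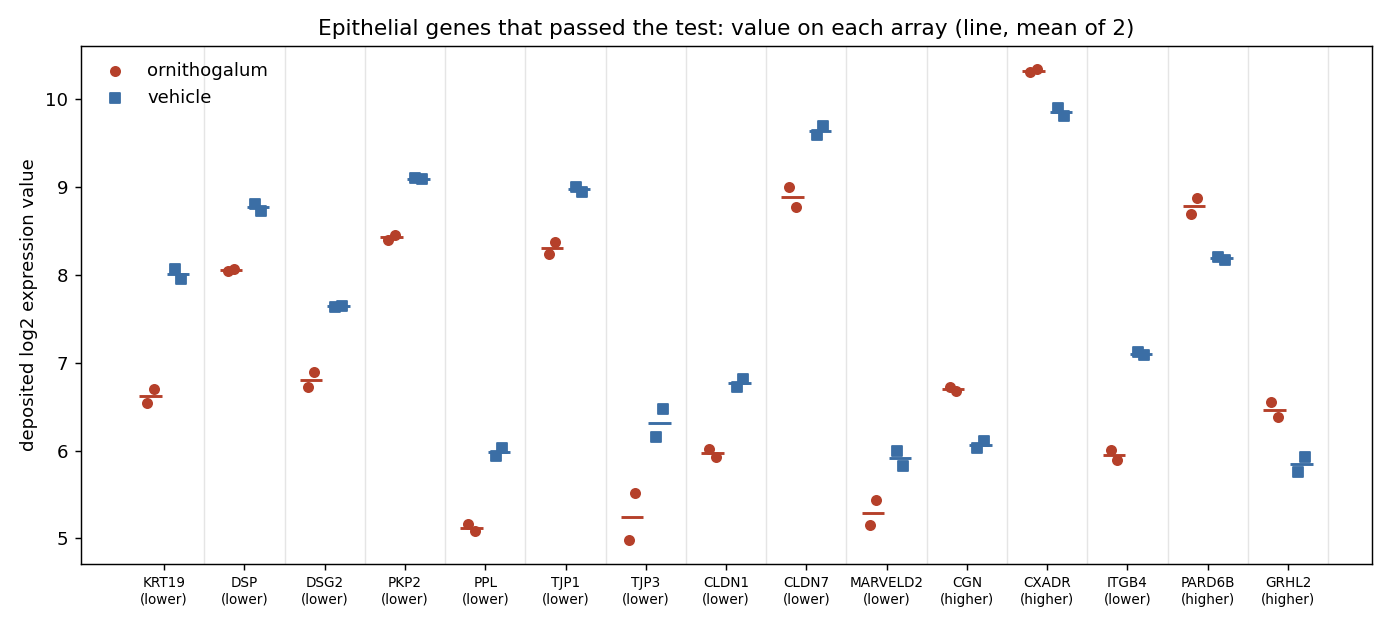
Deposited log2 expression value (vertical axis) of the 15 genes that passed the test on each ornithogalum array (red circles) and each vehicle array (blue squares), with the mean of each pair as a line. The 2 ornithogalum arrays lie wholly below the vehicle arrays for the 11 genes that fell and wholly above them for CGN, CXADR, PARD6B and GRHL2.

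Calls were made only with both vehicle arrays, the pair with the smaller spread. Pooled over clusters, the SD within a group was 0.140 for vehicle and 0.258 for ornithogalum. A fit without 1 vehicle array takes its spread from the ornithogalum pair alone. A fit without 1 ornithogalum array takes it from the vehicle pair alone. Without vehicle replicate 1 or without vehicle replicate 2 limma called 0 of 21214 clusters and so 0 members, while at an unadjusted p under 0.05 there were 2 members higher and 11 lower without the first and 3 and 11 without the second. Since the vehicle arrays lay close together, leaving out 1 of them could move a difference only little. Without vehicle replicate 1 and without vehicle replicate 2, KRT19 had -1.34 and -1.46, against -1.40 with all arrays. PPL had -0.90 and -0.81, against -0.86, and DSG2 had -0.84 and -0.83, against -0.83. Over all fits that left out 1 array of either group, the difference of KRT19 ran from -1.48 to -1.32. That of TJP3 ran from -1.33 to -0.79 and that of MARVELD2 from -0.77 to -0.48. Without ornithogalum replicate 1, 2 members rose and 11 fell, and without ornithogalum replicate 2, 7 rose and 13 fell. The ornithogalum arrays had narrower distributions, with interquartile ranges of log2 values of 2.44 and 2.56 against 2.72 and 2.71 on the vehicle arrays. Why the deposited arrays do not share 1 distribution is not known, and its effect on the members was examined only by the scalings given here. After quantile scaling, which gives all arrays the same distribution, 5 members rose and 11 fell. Centring each array on its median moved the median difference of all clusters to 0.195, and 5 members rose and 9 fell. The members' median minus that of all clusters was -0.166 on the deposited values, -0.135 after quantile scaling and -0.132 after cyclic loess.

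Markers of other cell types were mostly dim. Of 19 measured markers of fibroblasts, leukocytes and endothelium 16 were below the median signal. Limma called 0 of them, and 1, the fibroblast gene POSTN, had an unadjusted p under 0.05. Averaged over the 19, their signal was 3.91 and 3.87 in ornithogalum cells, against 3.80 and 3.79 in vehicle cells. The leukocyte marker LYZ, the lysozyme gene, which gastric epithelium also makes, had 11.70 and 11.73 in ornithogalum cells, against 11.75 and 11.76 in vehicle cells. Of the gastric markers, TFF2, MUC6, GKN1 and CLDN18 were below the median signal of tested clusters. TFF1, a secreted trefoil peptide of the stomach surface, was above it and fell 1.51-fold, although not without ornithogalum replicate 1 (adjusted p = 0.0547) or after quantile scaling (0.0712) or median centring (0.0748).

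Among the keratins only KRT19 passed the test. KRT19, a small type I keratin of simple and ductal epithelia that lacks the usual tail domain, had log2 values of 6.54 and 6.70 on the ornithogalum arrays, against 8.07 and 7.96 on the vehicle arrays. It fell 2.63-fold (log2 difference -1.40, SE 0.13, adjusted p = 0.00437 by limma), the largest difference of the 38 genes, and the groups lay far apart. The primary pair of simple epithelia, KRT8 (type II) and KRT18 (type I), did not pass. KRT8 had 10.37 and 10.38 in ornithogalum cells, against 10.44 and 10.59 in vehicle cells, a difference of -0.14 with a 95% interval of -0.45 to 0.16. KRT18 had 9.34 and 9.47 in ornithogalum cells, against 9.36 and 9.49 in vehicle cells, a difference of -0.02 with an interval of -0.34 to 0.30, and its values overlapped between groups. A dimmer second KRT18 cluster differed by -0.13 and did not pass either. Both genes have many processed pseudogenes, and whether their probes also read these was not tested. These intervals exclude for KRT8 and KRT18 a fall as large as that of KRT19.

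The other keratins were dim. KRT23, a type I keratin, had 3.14 and 2.85 in ornithogalum cells and 3.51 and 3.78 in vehicle cells. Its groups did not overlap, but it missed the threshold (log2 difference -0.65, adjusted p = 0.0522), passed it after quantile scaling (adjusted p = 0.034) and without ornithogalum replicate 1 (0.0343), and lay below the median signal. KRT7, KRT20 and KRT80 had differences of 0.10, -0.12 and 0.04, with arrays that overlapped between groups.

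Of 9 measured desmosomal genes 4 fell and none rose. All 9 were above the median signal, and 44.4% of them passed, all lower, where 31.0% of brighter clusters passed and 19.9% fell. Both ornithogalum arrays lay below both vehicle arrays in 7 of the 9, where 30.2% of all clusters did so, a share not counted among brighter clusters alone. The median log2 difference was -0.35. DSP encodes desmoplakin, the plaque protein that anchors keratin filaments. It had 8.05 and 8.07 in ornithogalum cells, against 8.81 and 8.73 in vehicle cells, and fell 1.63-fold (-0.71, SE 0.11, adjusted p = 0.0154). DSG2, a desmosomal cadherin of simple epithelia, had 6.72 and 6.90 in ornithogalum cells, against 7.64 and 7.65 in vehicle cells. It fell 1.78-fold (-0.83, SE 0.12, adjusted p = 0.0126 by limma). The RNA of DSP and of DSG2 was thus lower on both treated arrays, and protein was not measured.

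PKP2, plakophilin 2, an armadillo protein that links the cadherins to desmoplakin, had 8.40 and 8.46 in ornithogalum cells, against 9.10 and 9.09 in vehicle cells. It fell 1.59-fold (-0.67, SE 0.11, adjusted p = 0.0171), and the vehicle pair was nearly identical. PPL encodes periplakin, a plakin that also links keratin filaments to the membrane. It had 5.16 and 5.09 in ornithogalum cells, against 5.94 and 6.03 in vehicle cells, and fell 1.81-fold (-0.86, SE 0.11, adjusted p = 0.0095). All 4 of these falls kept an adjusted p under 0.05 after quantile scaling, cyclic loess and median centring, and in a fit over every cluster of the table.

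The remaining 5 desmosomal genes did not pass. DSC2, PKP3 and PKP4, a second desmosomal cadherin and further armadillo proteins, had differences of -0.25, -0.21 and -0.35, each with both ornithogalum arrays below the vehicle arrays. JUP, plakoglobin, which serves both desmosomes and adherens junctions, went the other way, with 8.40 and 8.21 in ornithogalum cells and 7.92 and 7.91 in vehicle cells (difference 0.39, adjusted p = 0.0932), and passed without ornithogalum replicate 2 (adjusted p = 0.036). EVPL, envoplakin, the partner of periplakin, had overlapping groups and a difference of 0.17 (95% interval -0.36 to 0.70), which turned to -0.10 without ornithogalum replicate 2.

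The bases before the start of DSP and DSG2 are shown because these genes code for the plaque anchor and the cadherin that fell, and because both windows hold the E-box CAGGTG, which ZEB and SNAI repressors bind. Each is the 250 bases before the RefSeq start, on GRCh38.p14, from 5′ to 3′, with CAGGTG or its reverse complement CACCTG in capitals. DSP lies at chr6:7541421-7541670 on the plus strand and DSG2 at chr18:31497927-31498176 on the plus strand.
DSP: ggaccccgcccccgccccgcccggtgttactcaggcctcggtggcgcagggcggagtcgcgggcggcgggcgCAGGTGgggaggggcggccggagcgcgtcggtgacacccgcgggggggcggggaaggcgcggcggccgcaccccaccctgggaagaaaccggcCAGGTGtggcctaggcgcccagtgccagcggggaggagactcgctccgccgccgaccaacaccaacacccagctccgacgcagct
DSG2: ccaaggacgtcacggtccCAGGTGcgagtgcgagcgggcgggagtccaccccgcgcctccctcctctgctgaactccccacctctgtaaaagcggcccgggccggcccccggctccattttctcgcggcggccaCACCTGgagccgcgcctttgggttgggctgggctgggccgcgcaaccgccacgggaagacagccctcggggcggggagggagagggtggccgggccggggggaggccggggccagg
In DSP the E-boxes begin 178 and 85 bases before the start, and in DSG2 they begin 232 and 116 bases before it. Both windows are rich in G and C (78.0% and 75.2%, against a median of 58.0% over all promoters of the table).

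None of the 3 measured adherens junction genes passed limma's test, and 0 had an unadjusted p under 0.05. CDH1, E-cadherin, the main cadherin of epithelia, had 5.57 and 5.93 in ornithogalum cells, against 6.13 and 6.04 in vehicle cells. Both treated arrays were lower, but the treated pair was widely spread, and the difference of -0.33 (SE 0.16, adjusted p = 0.216) passed only when ornithogalum replicate 2 was left out (-0.51, adjusted p = 0.0356). CDH3, P-cadherin, was dim, with overlapping groups and a difference of 0.01 that turned to -0.06 after quantile scaling or cyclic loess. CTNNA1, alpha-catenin, the link to actin, had 8.48 and 8.32 in ornithogalum cells and 8.33 and 8.33 in vehicle cells, a difference of 0.07 with a 95% interval of -0.24 to 0.37.

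Tight junction genes split in both directions. Of 10 measured, 5 fell and 2 rose, and the median difference was -0.40. All 10 were above the median signal, and 70.0% passed, where 31.0% of brighter clusters passed and 19.9% fell. The groups did not overlap for any of the 10, where groups did not overlap in 62.2% of all clusters, a share not counted among brighter clusters alone. Among the scaffolds, TJP1, which encodes ZO-1, had 8.24 and 8.38 in ornithogalum cells, against 9.00 and 8.95 in vehicle cells, and fell 1.58-fold (-0.66, SE 0.12, adjusted p = 0.0213). TJP3, which encodes ZO-3, had 4.98 and 5.52 in ornithogalum cells, against 6.16 and 6.47 in vehicle cells. It fell 2.09-fold (-1.06, SE 0.23, adjusted p = 0.0335), with a wider spread within both pairs. CGN encodes cingulin, a cytoplasmic plaque protein that binds the ZO scaffolds, and went the opposite way. It had 6.72 and 6.68 in ornithogalum cells, against 6.03 and 6.11 in vehicle cells, and rose 1.55-fold (0.63, SE 0.11, adjusted p = 0.0209), so that scaffold genes and the gene of a protein they bind moved apart.

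Claudins, the membrane proteins that form the seal and set its ion selectivity, also split. CLDN1, a sealing claudin, had 6.02 and 5.93 in ornithogalum cells, against 6.73 and 6.82 in vehicle cells, and fell 1.74-fold (-0.80, SE 0.12, adjusted p = 0.012). CLDN7 had 9.00 and 8.77 in ornithogalum cells, against 9.59 and 9.70 in vehicle cells, and fell 1.69-fold (-0.76, SE 0.14, adjusted p = 0.0214). In both genes each treated array lay below each vehicle array, and the fall of CLDN7 was lost after median centring (adjusted p = 0.0631). CLDN3 and CLDN4, close relatives that lie beside each other in the genome, were higher on both treated arrays without passing. CLDN3 had 5.92 and 5.45 in ornithogalum cells, against 5.25 and 5.18 in vehicle cells (0.47, adjusted p = 0.152). CLDN4 had 7.52 and 7.04 in ornithogalum cells, against 6.74 and 6.81 in vehicle cells (0.51, adjusted p = 0.134). For both, ornithogalum replicate 1 was the higher treated array, and without ornithogalum replicate 2 they passed, with adjusted p = 0.0166 for CLDN3 and 0.0148 for CLDN4. CLDN12, a claudin that lacks the usual scaffold-binding end, had a difference of -0.18 and did not pass.

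Of the other membrane proteins of the tight junction, 1 fell and 1 rose. MARVELD2, tricellulin, which seals the corners where cells meet, had 5.15 and 5.44 in ornithogalum cells, against 6.00 and 5.83 in vehicle cells. It fell 1.54-fold (-0.62, SE 0.15, adjusted p = 0.0481), close to the threshold, and a second MARVELD2 cluster held identical values and is no separate measurement. This call was lost without ornithogalum replicate 1 (adjusted p = 0.0732) and after each other scaling (0.0523 to 0.0836). CXADR, an adhesion molecule of the immunoglobulin superfamily that also serves as the receptor of coxsackie and adenoviruses, had 10.31 and 10.34 in ornithogalum cells, against 9.90 and 9.81 in vehicle cells. It rose 1.39-fold (0.47, SE 0.11, adjusted p = 0.0452), and passed neither without ornithogalum replicate 1 (adjusted p = 0.0543) nor after cyclic loess (0.0616).

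The windows before CLDN1, which fell, and CGN, which rose, are shown as an example of tight junction genes with opposite changes, each with a single listed start. CLDN1 lies at chr3:190322447-190322696 on the minus strand and CGN at chr1:151511137-151511386 on the plus strand, on GRCh38.p14, each read 5′ to 3′ towards its gene.
CLDN1: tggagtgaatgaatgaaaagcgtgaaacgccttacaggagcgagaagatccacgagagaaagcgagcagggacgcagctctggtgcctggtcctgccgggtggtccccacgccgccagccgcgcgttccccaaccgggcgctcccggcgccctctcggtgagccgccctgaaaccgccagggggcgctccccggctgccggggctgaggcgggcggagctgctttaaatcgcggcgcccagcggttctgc
CGN: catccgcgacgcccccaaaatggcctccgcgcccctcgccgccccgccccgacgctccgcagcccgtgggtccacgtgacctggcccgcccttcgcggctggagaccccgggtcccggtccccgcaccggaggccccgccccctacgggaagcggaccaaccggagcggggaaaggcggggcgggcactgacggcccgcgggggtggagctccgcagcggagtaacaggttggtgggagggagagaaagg
Neither window holds CAGGTG, the Grainyhead centre ACCGGT or the AP-1 site TGANTCA on either strand, so neither has capitals. RefSeq promoters were at hand for 20 of the 38 measured genes. The E-box was found in 5 of 12 windows of the genes that fell (7 genes, some with several starts), in 5 of 21 windows of measured genes that did not pass, and in 17.5% of all 35116 promoter windows. KRT19, ITGB4, PPL and PKP2, which also fell, had no window, and windows of the same gene are not independent. These shares were not compared by a test, and whether any factor binds the E-boxes was not tested. ACCGGT was in 0 of these member windows and in 1.45% of all windows, and TGANTCA was in 0 of the 12, in 2 of the 21 and in 6.57% of all windows.

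**Figure D2:**
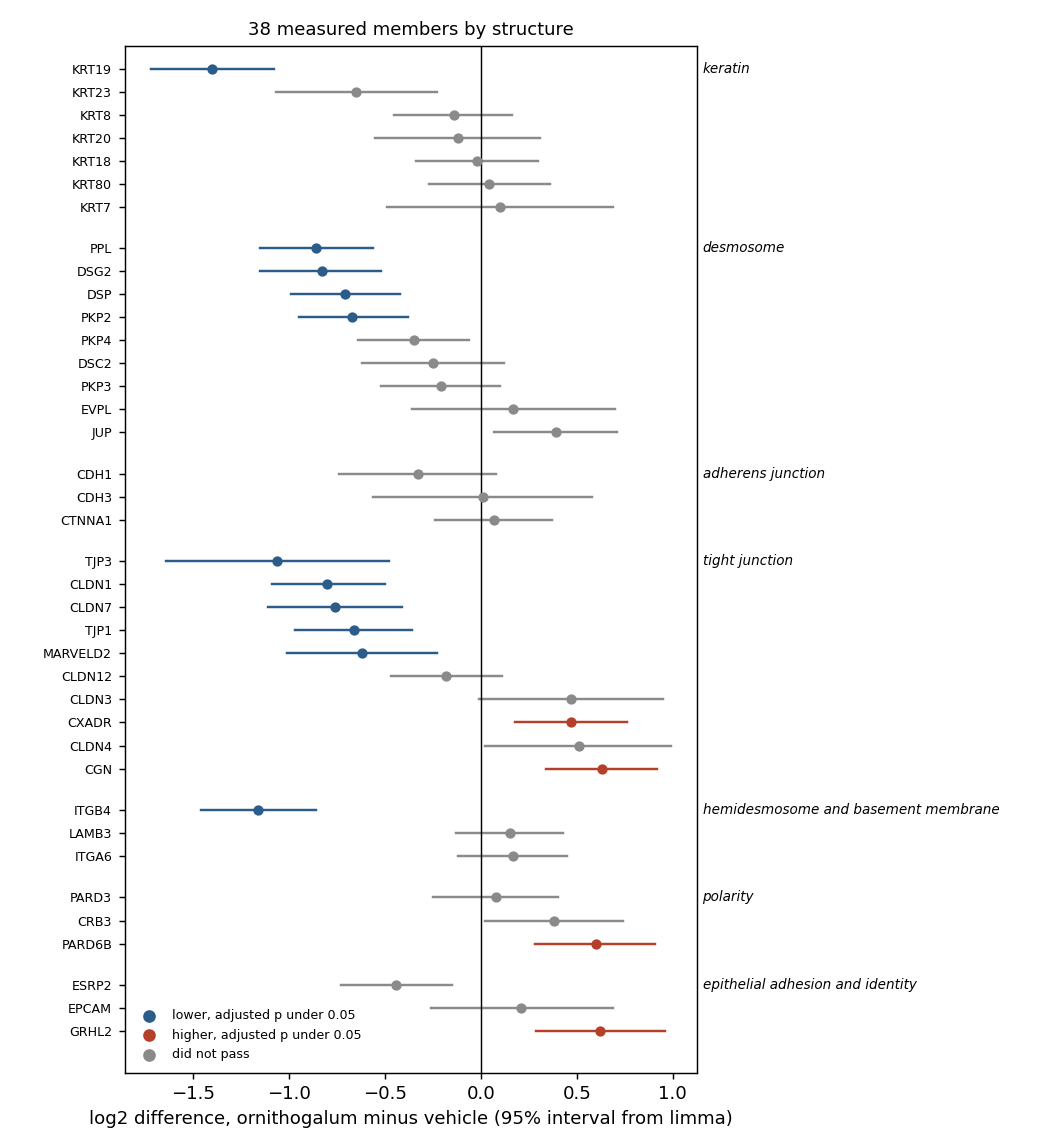
Log2 difference, ornithogalum minus vehicle, with limma's 95% interval (horizontal axis) for the 38 measured genes, grouped by structure and ordered by size within each, in blue where the gene fell, red where it rose and grey where it did not pass. The desmosome has 4 falls and no rise and the tight junction 5 falls and 2 rises. The points of all 3 polarity genes lie to the right of 0, and the interval of PARD3 crosses it.

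At the basal side ITGB4 stood apart from its partners. ITGB4, the integrin beta 4 chain that binds laminin and carries the hemidesmosome, had 6.01 and 5.89 in ornithogalum cells, against 7.12 and 7.09 in vehicle cells. It fell 2.23-fold (-1.16, SE 0.12, adjusted p = 0.00509), the second largest difference among the members, and passed in every setting that kept both vehicle arrays. ITGA6, the alpha 6 chain it pairs with, had 9.69 and 9.74 in ornithogalum cells and 9.53 and 9.56 in vehicle cells, a difference of 0.17 with a 95% interval of -0.12 to 0.45, which excludes a fall of the size seen in ITGB4. LAMB3, a chain of laminin-332, the ligand of this integrin, had 6.62 and 6.66 in ornithogalum cells and 6.50 and 6.48 in vehicle cells (0.15, adjusted p = 0.393).

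The 3 measured polarity genes had differences above 0 and 1 passed. All 3 were above the median signal, and this share of 33.3% is near the 31.0% called among brighter clusters. The 18 further polarity genes described below had a median of -0.02. PARD6B, an adaptor of the Par complex that binds atypical protein kinase C, had 8.69 and 8.88 in ornithogalum cells, against 8.21 and 8.17 in vehicle cells, and rose 1.51-fold (0.60, SE 0.12, adjusted p = 0.032). CRB3, the Crumbs protein of epithelial apical membranes, had 5.53 and 5.79 in ornithogalum cells, against 5.35 and 5.22 in vehicle cells. It did not pass (0.38, adjusted p = 0.137), but did so after quantile scaling, cyclic loess and median centring (adjusted p from 0.032 to 0.0433). PARD3, the scaffold of the Par complex, had a difference of 0.08 and overlapping groups.

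Among factors of adhesion and identity, GRHL2 rose. GRHL2, a Grainyhead transcription factor that maintains epithelial gene expression and activates Cdh1 and Cldn4 in mouse epithelia, had 6.55 and 6.38 in ornithogalum cells, against 5.76 and 5.93 in vehicle cells. It rose 1.54-fold (0.62, SE 0.13, adjusted p = 0.0332), and missed the threshold without ornithogalum replicate 1 (adjusted p = 0.0558). EPCAM, an adhesion molecule used as a marker of epithelial cells, had 10.07 and 10.01 in ornithogalum cells, against 10.07 and 9.59 in vehicle cells, with overlapping groups and a difference of 0.21 (95% interval -0.26 to 0.69). A second EPCAM cluster had 9.92 and 9.84 in ornithogalum cells, against 9.71 and 9.68 in vehicle cells, without overlap, and did not pass (0.19, adjusted p = 0.303). ESRP2, a splicing regulator of epithelial isoforms, had 5.16 and 5.26 in ornithogalum cells, against 5.65 and 5.66 in vehicle cells. Its groups did not overlap, and it missed the threshold (-0.44, adjusted p = 0.0542) but passed without ornithogalum replicate 2 (0.0344).

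A wider list of 114 further genes held other components of these structures and 10 genes of the mesenchymal state. Of the 106 measured, those 10 included, 11 fell and 4 rose, and the median difference was 0.00. The 15 that passed make up 14.2%, below the 19.2% called among all clusters. After median centring 6 fell and 6 rose, after quantile scaling 10 and 6, and after cyclic loess 11 and 6. Among the 106 were 41 genes below the median signal. Without ornithogalum replicate 2, 19 fell and 9 rose, and without either vehicle array limma called 0. Of 7 other desmosomal genes limma called 0, and 0 had an unadjusted p under 0.05. They were dim in 6 cases, among them the cadherins of stratified skin. Among 11 other keratins 1 passed, KRT10, a keratin of differentiating skin that was dim here and rose 1.50-fold, with no call without ornithogalum replicate 1 (adjusted p = 0.0621).

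In adherens junctions 3 of 13 further genes fell and none rose. The 23.1% that passed is near the 19.2% of all clusters, and 12.6% of all clusters fell. Of the 13, 5 were below the median signal, and the 3 that fell were above it. NECTIN2, an immunoglobulin-like adhesion molecule, fell 1.68-fold, CDH17, the liver-intestine cadherin, 1.54-fold, and CTNNB1, beta-catenin, 1.40-fold, with 9.92 and 9.99 in ornithogalum cells against 10.40 and 10.48 in vehicle cells. All 3 calls were lost after median centring, with adjusted p = 0.0572 for NECTIN2, 0.0738 for CDH17 and 0.121 for CTNNB1. That of CTNNB1 was also lost without ornithogalum replicate 1 (adjusted p = 0.0615). Of 25 further tight junction genes 2 fell and 1 rose. The share of these 25 that passed is below the 19.2% of all clusters, unlike the share of the tight junction members. Part of the 25 were below the median signal, so their share is not set against brighter clusters. CLDN2, a claudin that forms a cation pore, had 4.24 and 4.21 in ornithogalum cells, against 5.30 and 5.17 in vehicle cells, and fell 2.02-fold (adjusted p = 0.00674). MARVELD1 fell 1.90-fold, and YBX3, a Y-box factor that binds ZO-1, rose 1.63-fold.

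At the basal side 1 of 10 further genes of hemidesmosomes and basement membrane rose and 1 fell. All 10 were above the median signal, and the 20.0% that passed is below the 31.0% called among brighter clusters. ITGB1, the integrin beta 1 chain, which also pairs with the alpha 6 chain, rose 1.75-fold, with 8.60 and 8.83 in ornithogalum cells against 7.93 and 7.88 in vehicle cells (adjusted p = 0.0166). Its sign was opposite to that of ITGB4. LAMA5, the laminin alpha 5 chain, fell 1.48-fold, although not after median centring (adjusted p = 0.0714). Of 18 further polarity genes 1 rose and 1 fell, and the 11.1% that passed is below the 19.2% of all clusters. Of the 18, 4 were below the median signal, so this share is not set against brighter clusters. Differences were above 0 in 8 and below it in 10, with a median of -0.02. LIN7C, a PDZ adaptor of the Crumbs complex, had 8.38 and 8.39 in ornithogalum cells, against 7.03 and 7.14 in vehicle cells, and rose 2.46-fold (1.30, SE 0.11, adjusted p = 0.00429), which is the largest rise on either list. PRKCZ, an atypical protein kinase C of the Par complex, fell 1.51-fold, although not without ornithogalum replicate 1 (adjusted p = 0.0528), after quantile scaling (0.0598) or after median centring (0.0657).

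Further genes of epithelial adhesion and identity fell in 4 of 12 and rose in 0. All 12 were above the median signal, and the 33.3% that passed is near the 31.0% called among brighter clusters. All of these calls were falls, and 19.9% of brighter clusters fell. ST14, matriptase, a membrane protease of epithelia, had 6.52 and 6.70 in ornithogalum cells, against 7.91 and 7.87 in vehicle cells, and fell 2.43-fold (adjusted p = 0.00476). RAB25, a small GTPase of epithelial recycling, fell 2.07-fold and EHF, an epithelial ETS factor, 1.78-fold. After quantile scaling, cyclic loess or median centring these 12 genes gave 4 falls and 2 rises. Of 10 genes of the mesenchymal state, including ZEB1, ZEB2, SNAI1, SNAI2, VIM and FN1, limma called 0, and 1 had an unadjusted p under 0.05, with differences from -0.59 to 0.38 and a median of 0.10. SNAI1 had 5.62 and 5.52 in ornithogalum cells and 5.21 and 5.32 in vehicle cells (0.30), and 6 of the 10 were below the median signal.

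**Figure D3:**
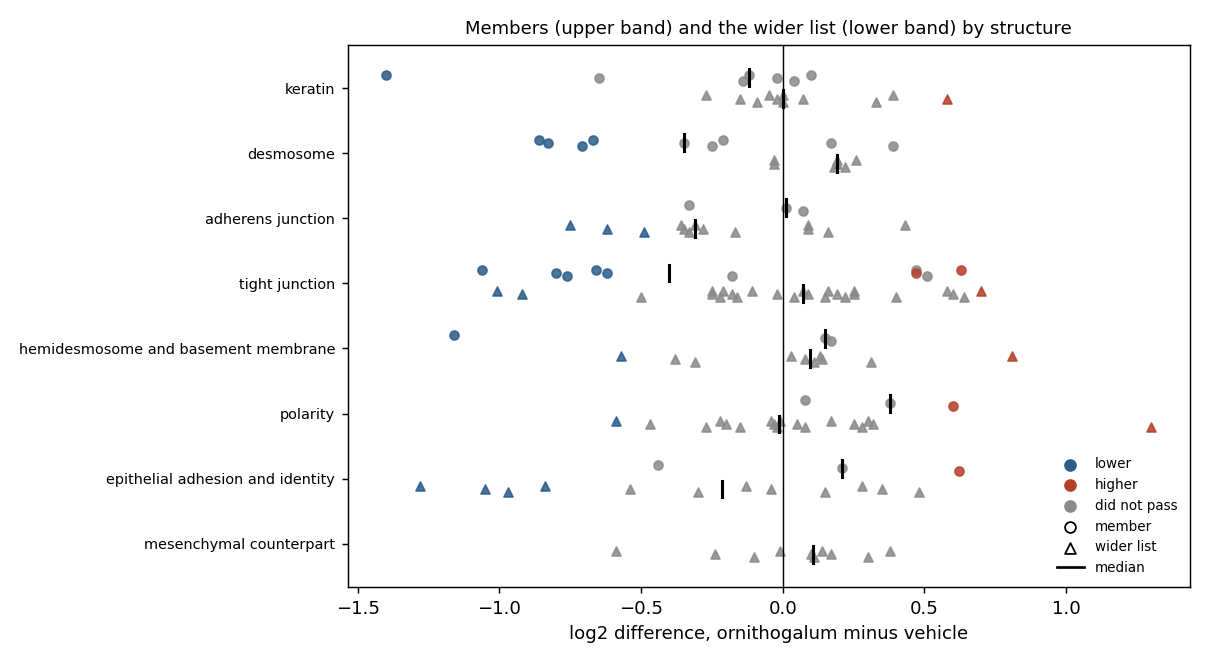
Log2 difference, ornithogalum minus vehicle (horizontal axis), of the 38 members (circles) and of 106 genes of the wider list (triangles) by structure, coloured by whether the gene fell, rose or did not pass, with the median of each set as a black bar. Falls number 4 among member desmosome genes, 5 among member tight junction genes and 4 among identity genes of the wider list, and LIN7C stands furthest to the right.

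The calls differed in how far they held across the settings tried. KRT19, ITGB4 and PPL passed in all 13 settings that kept all 4 arrays, at adjusted p of at most 0.0325, and without either ornithogalum array. DSP, DSG2, PKP2 and CLDN1 passed in 12 of the 13 and missed only at the stricter threshold of 0.01. In the fit over every cluster of the table the falls of TJP1, TJP3, CLDN7 and MARVELD2 and all 4 rises were lost, with adjusted p from 0.0565 for CGN to 0.106 for MARVELD2. CXADR passed in 8 of the 13 and MARVELD2 in 7. Among genes that missed the threshold, JUP, PKP4 and ESRP2 passed when brighter clusters alone were tested and with an intensity trend.

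**Figure D4:**
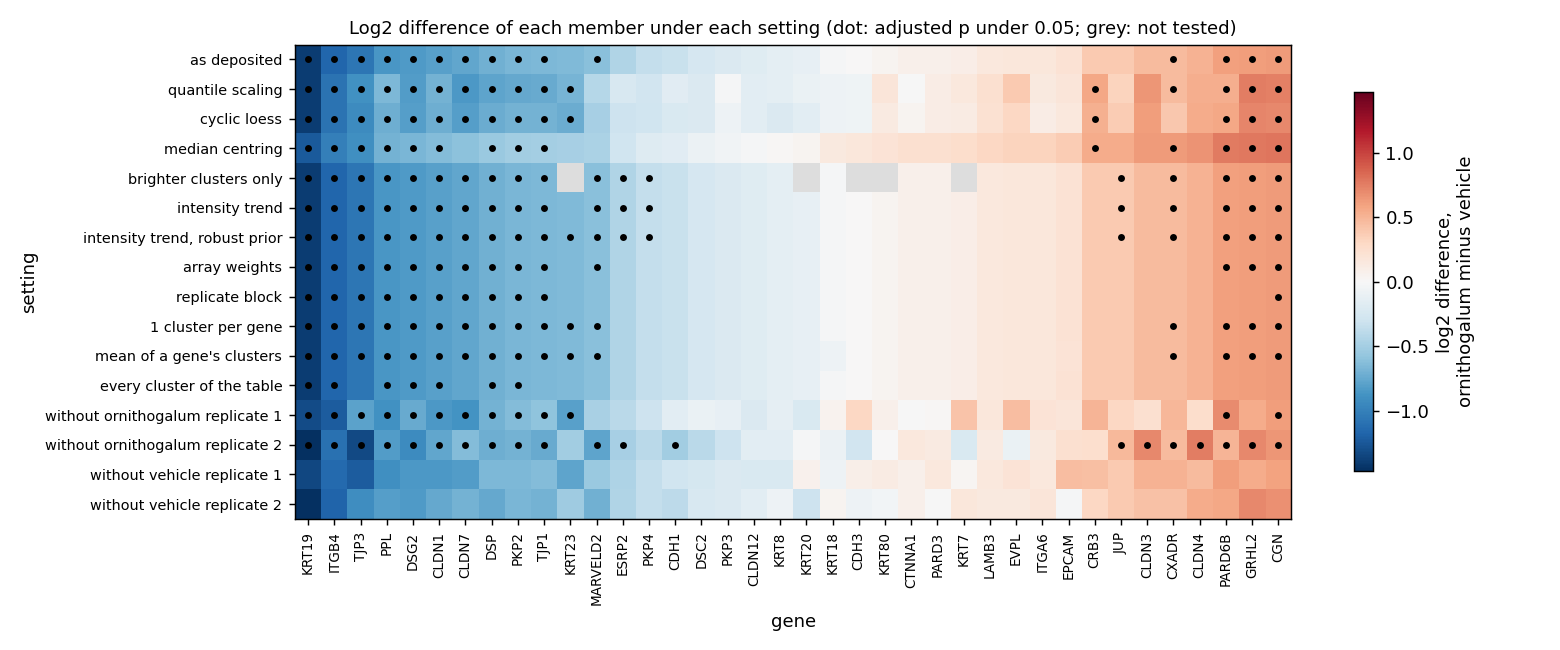
Log2 difference, ornithogalum minus vehicle (colour), of each measured gene (columns, ordered by the deposited difference) under 16 ways of processing or leaving out an array (rows), with a dot where limma's adjusted p was under 0.05. The columns of KRT19 and ITGB4 hold a dot in each row except the last 2, without a vehicle array, which hold none for any gene.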

How the data were processed

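Total RNA from 4 samples of AGS cells was labelled and hybridised to Affymetrix Human Gene 1.0 ST arrays. The deposited values are log2 expression per transcript cluster, for which the submitters' processing notes name RMA and Affymetrix Expression Console 1.1, with settings not given in the sources used here. Arrays have no depth, and their number limits the precision. The table holds 33297 clusters, of which 21214 with at least 1 symbol in the 2016 platform annotation were tested, without a filter on dim clusters, and 19461 have 1 symbol, updated by gene number. The test was limma's (version 3.58.1, R 4.3.3) with lmFit and eBayes, two-sided, without covariates, at a Benjamini-Hochberg threshold of 0.05, and errors are SD over 2 arrays or limma's SE. The code was tested on simulated data. Members, lists and settings were chosen with earlier results of these data known. By rule, values on every array are given for members that passed and for CDH1, EPCAM, KRT8 and KRT18. Those of KRT23, JUP, CTNNA1, CLDN3, CLDN4, ITGA6, LAMB3, CRB3, ESRP2, SNAI1 and LYZ were added after their values were seen. From the wider list up to 3 passing genes per structure are named by rule. The array values given for CTNNB1, CLDN2, ITGB1, LIN7C and ST14 among them go beyond this rule. Arrays of the same number deviated with r = -0.059 across clusters, so the numbers were not taken as pairs. Promoter sequences are from RefSeq, GRCh38.p14.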

Additional observations from a re-analysis of the deposited data

How the results depend on the processing

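Quantile scaling, cyclic loess, testing brighter clusters alone, an intensity trend (plain or with a robust prior), array weights, 1 cluster per gene, the mean of a gene's clusters and a threshold of 0.10 gave 3 to 5 members higher and 11 to 14 lower, against 4 and 11 on the deposited values, and median centring gave 5 and 9. Blocking on the replicate number gave 1 member higher (CGN) and 10 lower. The rises of CXADR, PARD6B and GRHL2 and the fall of MARVELD2 were lost in this fit. The labels do not say whether same-numbered arrays share a culture or day, so which of the fits is right cannot be told. In the fit over every cluster, 0 rose and 7 fell, and at a threshold of 0.01, 0 rose and 3 fell. Leaving out 1 array gave 0 to 7 members higher and 0 to 13 lower, the zeros being those without a vehicle array, and a lone array is assumed to vary like the other group. No gene that passed changed sign in any setting. Genes that did not pass changed sign as follows, and the cause was not tested. After median centring KRT8 had 0.02, KRT18 0.14 and KRT20 0.04. After quantile scaling CDH3 had -0.06 and CTNNA1 -0.01, and CDH3 had -0.06 after cyclic loess. Over the fits that each left out 1 array, the difference ran from -0.22 to 0.42 for KRT7, -0.09 to 0.05 for KRT18, -0.30 to 0.06 for KRT20, -0.04 to 0.12 for KRT80, -0.10 to 0.45 for EVPL, -0.28 to 0.31 for CDH3, -0.01 to 0.15 for CTNNA1, -0.01 to 0.16 for PARD3 and -0.02 to 0.45 for EPCAM. Signal over background could not be set for single clusters, so values below the median signal of tested clusters may hold little transcript signal.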
